A study of Mus musculus with 6 samples.

Results

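The 10 genes followed here are known as regulators or surface markers of haematopoietic stem cells, measured in mouse bone marrow depleted of mature blood lineages. They are Hlf, Mecom, Prdm16, Mycn, Ndn, Cd34, Procr, Tek, Esam and Ly6a, and their probe sets were taken by gene symbol from the platform annotation of the array. Of the 10 genes, 9 were among the 18193 genes with a named probe set, with 24 probe sets in all among the 45037 probe sets of the array without controls. For Ly6a, which encodes the surface marker Sca-1, no probe set carried the gene's name alone in that annotation, so it was not analysed here. Probe sets annotated to several genes were not used, and whether any of them holds Ly6a was not examined. RNA of 3 samples of B.D(Chr5) mice, whose genetic background is labelled B.D, was compared with RNA of 3 samples of C57B/L6 mice. All samples came from adult females of 6 to 16 weeks, were labelled with biotin and were measured on 1 array each. Within a strain the samples are labelled as biological replicates, with no word on whether each was 1 mouse or pooled mice, so the p-values measure the spread between samples only.

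Long-term haematopoietic stem cells are a small minority of lineage-negative marrow, and most of the RNA in such a preparation comes from committed progenitors. Stem cells are regulated by transcription factors, here Hlf, Mecom, Prdm16 and Mycn, and by the growth suppressor Ndn. They are recognised by surface proteins such as Procr, Tek and Esam, several of which they share with endothelium. Cd34 is present on multipotent progenitors and on a part of the stem cells of the adult mouse.

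The signals are MAS5 intensities on a linear scale, in arbitrary units, with every array scaled to the same trimmed mean of 500. Differences between strains are given as log2(signal + 16) in B.D(Chr5) minus C57B/L6, which understates changes of dim probe sets. Only the brighter 50% of probe sets were tested, 22518 in all. Of the 24 probe sets of the 9 genes, 14 were among them, and each of the 9 genes had at least 1. A probe set was called when its limma p-value, adjusted over all tested probe sets, was under 0.05. The dim end of each array was marked by 27 probe sets for bacterial transcripts, whose 95th percentile lay between 21.8 and 38.0. Levels of different probe sets cannot be set against each other on such arrays.

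The arrays had median signals of 65.0 to 79.5. The level of the bacterial controls on the same array was exceeded by between 63.3% and 68.8% of probe sets on the B.D(Chr5) arrays. On the C57B/L6 arrays, between 69.3% and 71.2% of probe sets exceeded it. The signal of the 5' probe set of 18S ribosomal RNA ranged from 1726 on B.D(Chr5) replicate 1 to 20010.3 on B.D(Chr5) replicate 2. The part of both measures in the results below was not tested. Over all tested probe sets, 41 were called, 22 higher and 19 lower in B.D(Chr5).

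For Mycn, Prdm16 and Hlf, the genes with the lowest changes on the log2(signal + 16) scale, and for Mecom, which has 2 annotated starts, the 250 bases before the start are shown from RefSeq on GRCm38.p6, written 5' to 3' on the strand of the gene. Capitals mark GGGCGG (the GC box) and CCAAT on either strand.
Hlf, chr11:90390918-90391167, minus strand: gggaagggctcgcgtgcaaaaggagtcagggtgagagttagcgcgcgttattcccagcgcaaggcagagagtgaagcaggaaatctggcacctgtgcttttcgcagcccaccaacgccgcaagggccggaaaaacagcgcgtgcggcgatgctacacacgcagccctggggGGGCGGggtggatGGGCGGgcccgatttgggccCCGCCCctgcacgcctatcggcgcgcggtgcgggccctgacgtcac
Mycn, chr12:12941837-12942086, minus strand: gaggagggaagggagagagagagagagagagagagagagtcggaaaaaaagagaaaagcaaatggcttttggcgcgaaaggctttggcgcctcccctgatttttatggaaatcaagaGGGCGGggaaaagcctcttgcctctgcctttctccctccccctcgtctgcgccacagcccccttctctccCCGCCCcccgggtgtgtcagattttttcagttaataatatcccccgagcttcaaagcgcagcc
Prdm16, chr4:154636874-154637123, minus strand: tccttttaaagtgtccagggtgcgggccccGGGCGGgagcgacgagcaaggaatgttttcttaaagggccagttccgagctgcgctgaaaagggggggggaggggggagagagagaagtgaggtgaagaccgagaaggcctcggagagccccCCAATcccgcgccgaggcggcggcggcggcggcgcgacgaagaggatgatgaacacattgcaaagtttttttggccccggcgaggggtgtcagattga
Mecom, chr3:30509760-30510009, minus strand: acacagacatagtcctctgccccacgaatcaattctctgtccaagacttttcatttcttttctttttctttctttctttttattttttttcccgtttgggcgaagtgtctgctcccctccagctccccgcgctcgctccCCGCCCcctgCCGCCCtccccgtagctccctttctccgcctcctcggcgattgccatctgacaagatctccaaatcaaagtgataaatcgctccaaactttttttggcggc
Mecom, chr3:30013205-30013454, minus strand: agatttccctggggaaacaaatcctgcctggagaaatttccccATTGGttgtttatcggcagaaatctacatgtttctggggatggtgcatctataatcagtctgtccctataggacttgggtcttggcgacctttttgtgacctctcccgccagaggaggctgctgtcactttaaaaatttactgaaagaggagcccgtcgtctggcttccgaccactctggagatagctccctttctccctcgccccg

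The promoter table held 9 starts for 8 of the genes and 32851 starts in all, and Esam had none in it. A GC box was found in 4 of the 9 windows, those of Hlf with 3 matches, Mycn with 2, Prdm16 with 1 and the upstream start of Mecom with 2. It occurred in 32.7% of all windows of this length. CCAAT stood in 2 windows, those of Prdm16 and of the downstream start of Mecom, against 33.8% of all windows. The E-box CANNTG stood in 5 windows, those of Procr, Tek, Hlf, Mycn and the upstream start of Mecom, against 66.2% of all. TTANNTAA, a form of the site bound by Hlf and its relatives, stood in 1 window, that of Ndn, against 5.43% of all. AGATAA (the GATA site), GGAAGT (the ETS site), TGTGGT (the RUNX site) and TATAAA stood in 0 of the 9 windows, and in 9.99%, 19.7%, 14.0% and 12.4% of all windows. All motifs were searched on both strands, and GC boxes and E-boxes may overlap other motifs. These are matches of letters only, with no measurement of binding.

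The first question was how large the difference between the strains was for each gene. The log2 change was below 0 for 8 of the 9 genes, read on the brightest probe set of each, and for 49.9% of all tested probe sets. The median over the 9 genes was -0.27, from -0.43 for Mycn to 0.04 for Esam, where the median over all tested probe sets was 0.00025. None of the 14 tested probe sets of these genes was called by limma (0 of 14), against 0.182% of all tested probe sets. At an unadjusted threshold of 0.05, 2 of the 14 passed, both lower, against 2.56% of all tested probe sets that passed as lower and 4.75% that passed in either direction. They belonged to Mycn and Hlf. Since RNA was taken from a mixture of cells, fewer cells of a type and less RNA per cell cannot be told apart. The genes were chosen with earlier results on these arrays known, so their common direction is a description and not independent evidence.

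**Figure D1:**
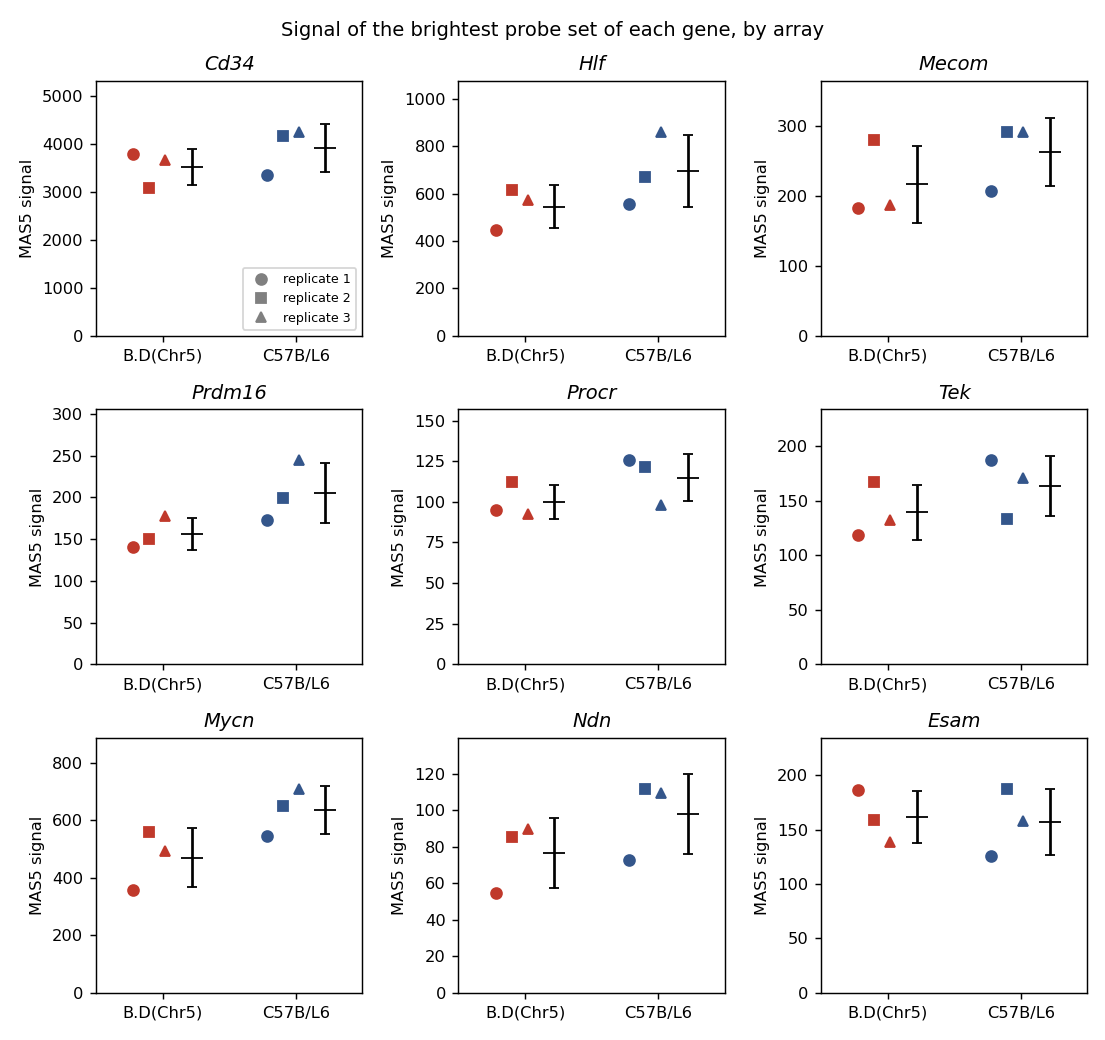
MAS5 signal (linear, from 0) of the brightest probe set of each of the 9 genes on the 3 B.D(Chr5) arrays (red) and the 3 C57B/L6 arrays (blue), with the mean and SD of each strain in black. The mean was lower in B.D(Chr5) for every gene except Esam, and the arrays of the strains overlapped for all 9 genes.

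Among the transcription factors, Mycn had the largest difference. This member of the MYC family acts together with Myc in the growth and survival of stem cells. Its brightest probe set, 1417155_at, had signals of 359, 559 and 493 on the B.D(Chr5) arrays, against 545, 649.9 and 709 on the C57B/L6 arrays. B.D(Chr5) replicate 2 lay above the lowest C57B/L6 array, and the other B.D(Chr5) arrays lay below all C57B/L6 arrays. On the log2 scale the difference was -0.43 (SE 0.17, 95% interval -0.82 to -0.05, limma adjusted p = 0.987). The strain means were 471 ± 102 in B.D(Chr5) and 634 ± 83.2 in C57B/L6 (SD, n = 3 each), a difference of -25.8%. The other probe sets of Mycn did not share this direction. On 1425922_a_at the signals were 173, 133 and 115 in B.D(Chr5), against 109, 113 and 155 in C57B/L6, a log2 change of 0.14 with an interval of -0.35 to 0.63. On 1425923_at, too dim to be tested, they ran from 12.3 to 75.9 in B.D(Chr5) and from 11.6 to 61.9 in C57B/L6. The 2 probe sets 1425922_a_at and 1425923_at are annotated to the same accession, and 1417155_at to another.

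Hlf, a PAR bZIP transcription factor that holds stem cells in quiescence, was the gene whose probe sets gave the most even picture. Probe set 1434735_at had signals of 403, 356 and 368 in B.D(Chr5), against 448, 491 and 514 in C57B/L6. All B.D(Chr5) arrays lay below all C57B/L6 arrays, which was the case for 1 of the 14 tested probe sets and for 5.24% of all tested probe sets. This gave a log2 difference of -0.35 (SE 0.12, 95% interval -0.63 to -0.08, limma adjusted p = 0.900). On its brighter probe set, 1434736_at, the signals were 445, 616 and 573 in B.D(Chr5), against 556, 671 and 859 in C57B/L6. There the strains overlapped and C57B/L6 replicate 3 stood highest. The log2 change of -0.33 was close to that of the first probe set, with a wider interval of -0.73 to 0.06.

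Mecom and Prdm16 encode related zinc finger proteins with a PR domain, and both are needed to maintain stem cells. Mecom had signals of 183, 280.5 and 187 in B.D(Chr5), against 207, 292 and 291 in C57B/L6, on probe set 1438325_at. The high B.D(Chr5) array lay just below the upper C57B/L6 arrays, and the low C57B/L6 array came close to the lower B.D(Chr5) arrays. The difference in log2 signal was -0.27 (95% interval -0.74 to 0.20, limma adjusted p = 1.00). The remaining probe sets of Mecom were dim. On 1422295_at and 1423011_at the signals were 23.0 to 31.9 and 10.3 to 17.4 in B.D(Chr5), and 4.02 to 43.6 and 1.05 to 22.4 in C57B/L6. They exceeded the bacterial controls of their own array on 3 and 1 of the 6 arrays, and no difference is read from them.

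For Prdm16, probe set 1440870_at had signals of 141, 151 and 178 in B.D(Chr5), against 173, 199.6 and 244 in C57B/L6. The groups overlapped by 1 array, B.D(Chr5) replicate 3, which lay just above C57B/L6 replicate 1. The strains differed by a log2 value of -0.36 (SE 0.18, 95% interval -0.77 to 0.06, limma adjusted p = 1.00). The strain means differed by -24.0%. The second tested probe set of Prdm16, 1429308_at, had means of 69.6 ± 24.2 in B.D(Chr5) and 69.8 ± 14.7 in C57B/L6 (SD, n = 3 each), and its log2 change was -0.03, with an interval of -0.64 to 0.59. Of the untested ones, 1429309_at had means of 70.7 ± 19.2 in B.D(Chr5) and 63.1 ± 17.2 in C57B/L6 (SD, n = 3 each), and 1440745_at was no higher than 29.0 on any array. Averaged over all 4 probe sets, the log2 change of Prdm16 was 0.02. Averaged over its 3 probe sets, that of Mycn was 0.06. Both averages give the untested dim probe sets the same weight as the brighter ones.

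Ndn encodes necdin, a growth suppressor of the MAGE family that is expressed from the paternal allele and limits the cycling of stem cells. It had 8 probe sets, more than any other of the genes, and all 8 had log2 changes below 0. Only 4 of them exceeded the bacterial controls on all 6 arrays, so this count includes values at the dim end. Of the 8, 3 were tested, and their 95% intervals all include 0. On the brightest, 1437853_x_at, the signals were 54.6, 85.3 and 89.5 in B.D(Chr5), against 72.5, 112 and 109.6 in C57B/L6. Replicate 1 was the lowest array within each strain, and the strains overlapped. In log2 terms the difference was -0.30 (95% interval -0.88 to 0.27, limma adjusted p = 1.00). The others were 1435382_at, with a log2 change of -0.33 and an interval of -0.90 to 0.23, and 1435383_x_at, with -0.15 and an interval of -0.94 to 0.63. Names ending in _x_at mark probe sets whose probes may also match other transcripts.

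A dim probe set of Ndn, 1456575_at, separated the strains. Its signals were 2.72, 3.37 and 4.11 in B.D(Chr5), against 22.2, 21.4 and 28.4 in C57B/L6. All B.D(Chr5) arrays lay well below all C57B/L6 arrays, but 5 of the 6 values lay at or below the bacterial controls of their own array, so no fold change is given and no test was made. Probe set 1438939_x_at, with 2.51 to 13.7 in B.D(Chr5) and 14.6 to 31.9 in C57B/L6, was of the same kind. The remaining probe sets of Ndn overlapped between the strains. On 1415923_at, the signals were 77.3, 65.7 and 40.7 in B.D(Chr5), against 64.9, 62.2 and 72.4 in C57B/L6.

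**Figure D2:**
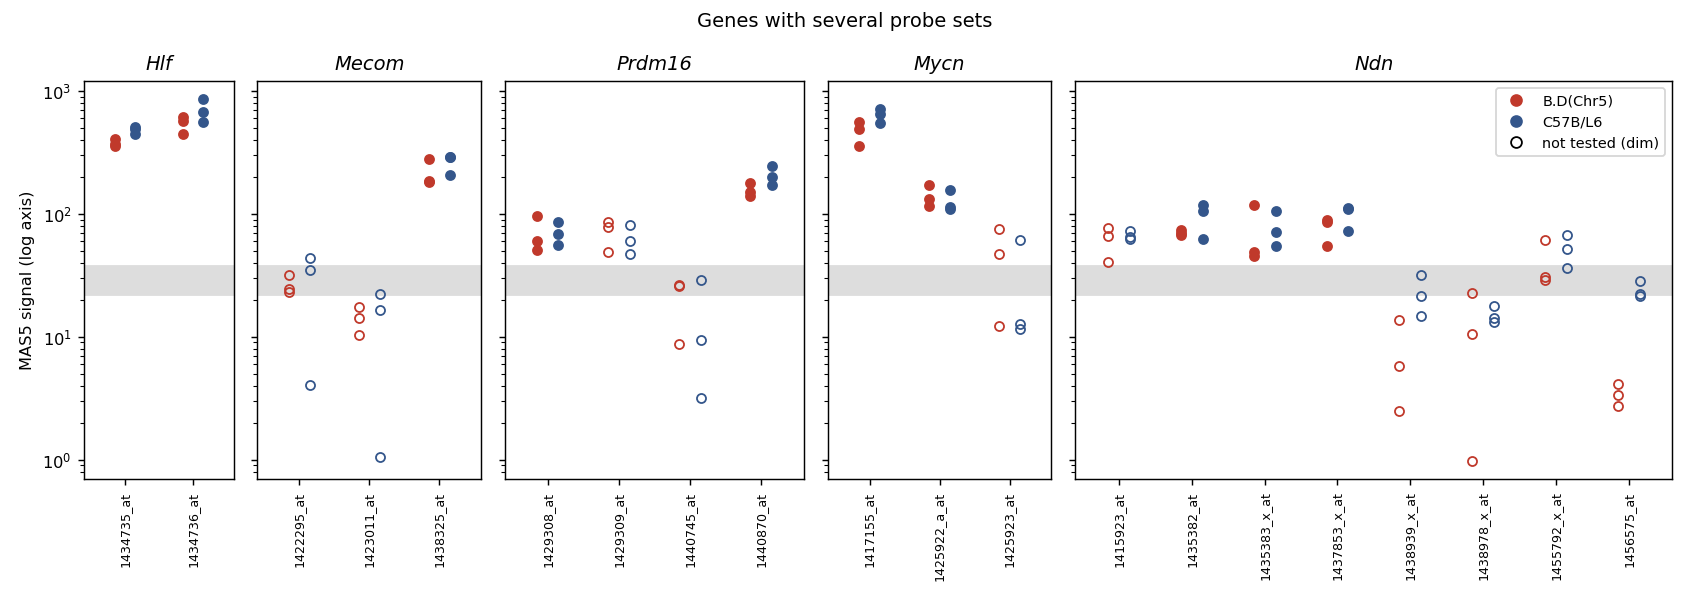
MAS5 signal (log axis) on every probe set of the 5 genes that have several, with B.D(Chr5) arrays in red left of C57B/L6 arrays in blue, open circles for the dim probe sets that were not tested, and a grey band for the range of the bacterial control level, 21.8 to 38.0. Both probe sets of Hlf and all 8 of Ndn had log2 changes below 0, while those of Mycn, Prdm16 and Mecom had changes on both sides of 0. Only 4 of the 8 probe sets of Ndn exceeded the bacterial controls on all 6 arrays.

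Of the surface proteins, Cd34, a sialomucin of progenitors and endothelium, had signals of 3805, 3099.5 and 3676 in B.D(Chr5), against 3356, 4185 and 4258 in C57B/L6. C57B/L6 replicates 2 and 3 stood above all B.D(Chr5) arrays, and C57B/L6 replicate 1 stood among them. As a log2 value the difference was -0.15 (SE 0.11, 95% interval -0.41 to 0.10, limma adjusted p = 1.00), the narrowest interval of the 14 probe sets. A decrease of more than 0.41 on the log2 scale lies outside that interval.

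Procr encodes the endothelial protein C receptor, a marker of the most primitive stem cells. It had signals of 94.9, 112 and 92.7 in B.D(Chr5), against 125, 121 and 98.1 in C57B/L6, on its only probe set, whose name ends in _s_at, which marks probes shared by several transcripts. The resulting log2 difference was -0.17 (95% interval -0.62 to 0.27, limma adjusted p = 1.00). Tek, the angiopoietin receptor Tie2, had 118, 167 and 132 in B.D(Chr5), against 187, 133 and 171 in C57B/L6, and the strains overlapped. Its log2 change was -0.21 (95% interval -0.66 to 0.24, limma adjusted p = 1.00). Esam, an adhesion molecule of endothelium, platelets and stem cells, was the 1 gene with a change above 0. Its signals were 186, 159 and 139 in B.D(Chr5), against 126, 187 and 158 in C57B/L6, and its log2 change was 0.04 (95% interval -0.41 to 0.49, limma adjusted p = 1.00).

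**Figure D3:**
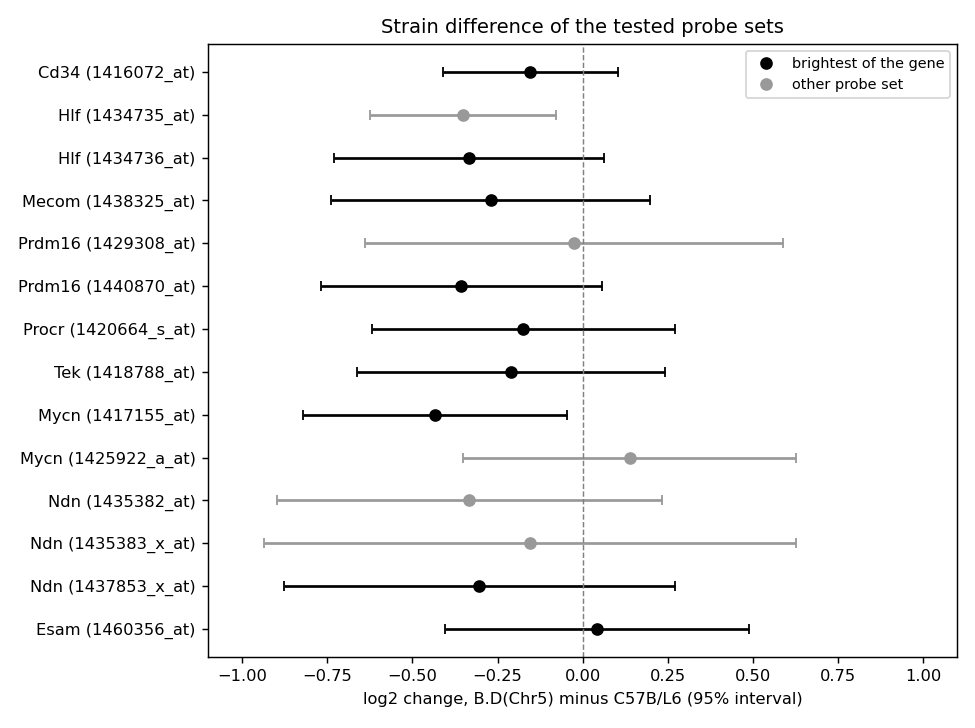
Log2 change (B.D(Chr5) minus C57B/L6) of the 14 tested probe sets with the 95% interval from limma, black for the brightest probe set of a gene and grey for the others. Of the 14 intervals, 12 include 0, and those of Mycn 1417155_at and Hlf 1434735_at lie below it.

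The second question was how these differences compared with the spread within a strain. The pooled SD of the brightest probe sets on the log2 scale ran from 0.15 for Procr to 0.31 for Ndn, with a median of 0.23, where the median over all tested probe sets was 0.17. The difference between the strains was larger than this SD for 4 of the 9 genes, Mycn, Prdm16, Hlf and Procr. The median half-width of the 95% intervals was 0.45, wider than the median change of the 9 genes.

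Arrays of the same strain differed from each other in a way that several of the genes shared. In C57B/L6, replicate 1 was the lowest array for 7 of the 9 genes, Cd34, Hlf, Mecom, Prdm16, Mycn, Ndn and Esam. Over all tested probe sets it was the lowest C57B/L6 array in 33.0%. The median deviation of the 9 genes from their strain mean was -0.22 on that array, 0.07 on replicate 2 and 0.15 on replicate 3, while the median over all tested probe sets lay between 0.00099 and 0.0060. For Procr and Tek, replicate 1 was instead the highest C57B/L6 array. In B.D(Chr5), replicate 1 was the lowest array for 6 of the 9 genes, Hlf, Mecom, Prdm16, Tek, Mycn and Ndn, against 32.3% of all tested probe sets. The median deviation was -0.20 there, 0.15 on replicate 2 and 0.07 on replicate 3. Cd34 and Esam ran the other way and were highest on B.D(Chr5) replicate 1. These counts are of the brightest probe sets. Over all 14 tested probe sets of the 9 genes, B.D(Chr5) replicate 1 was the lowest array of its strain in 7 and the highest in 5. It was the highest for Hlf 1434735_at and Mycn 1425922_a_at. C57B/L6 replicate 1 was the lowest of its strain in 11 of the 14 and the highest in 2. Arrays of the same replicate number are not taken as pairs here, and whether they were handled together was not tested.

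**Figure D4:**
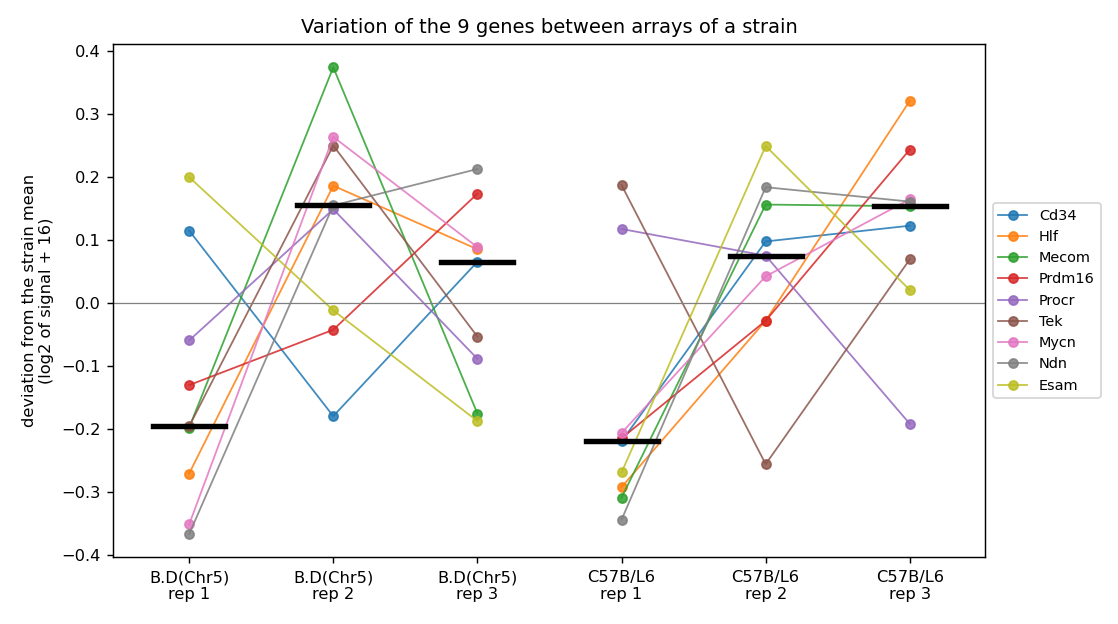
Deviation of each gene's brightest probe set from its strain mean (log2 of signal + 16) on the 3 B.D(Chr5) and the 3 C57B/L6 arrays, with lines joining the arrays of a strain for readability only and black bars for the median over the 9 genes. The medians of B.D(Chr5) replicate 1 and C57B/L6 replicate 1 lie at -0.20 and -0.22, and those of the other arrays above 0.

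The size of the difference depended on these arrays. Without C57B/L6 replicate 1 the median log2 change of the 9 genes was -0.43 and all 9 genes were below 0. Without B.D(Chr5) replicate 1 it was -0.17, again with all 9 below 0. Leaving out 1 array moved the change of each of the 9 genes by over 1.5 times in at least 1 of the 6 fits. The change ran from -0.56 to -0.26 for Mycn, highest without B.D(Chr5) replicate 1, and from -0.48 to -0.17 for Hlf, highest without C57B/L6 replicate 3. It ran from -0.46 to -0.17 for Mecom and from -0.48 to -0.12 for Ndn, both highest without B.D(Chr5) replicate 1. For Prdm16 it was -0.46 to -0.24, for Cd34 -0.26 to -0.06, for Procr -0.27 to -0.12, for Tek -0.34 to -0.11 and for Esam -0.09 to 0.17. Mecom averaged over its probe sets, including the dim ones from which no difference is read, was -0.02. The summed signal of the 9 brightest probe sets, which is mostly that of Cd34, was 5388, 5229 and 5560.1 on the B.D(Chr5) arrays, against 5347, 6550.2 and 6897 on the C57B/L6 arrays. C57B/L6 replicate 1 thus lay within the range of the B.D(Chr5) arrays. Averaging all probe sets of a gene in place of the brightest left 6 of 9 genes below 0 and gave a median of -0.15. These averages give probe sets too dim to be tested, among them those of Mecom, Prdm16 and Mycn, the same weight as the others.

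The third question was whether genes that act with these 9, or are related to them, differed in the same way. Of 36 measured relatives and partners, 26 were tested, 11 with a log2 change below 0 and 15 above, with a median of 0.03 and 0 called by limma (0 also at an unadjusted threshold of 0.05). Angpt1, the ligand of Tek, had signals of 1535, 2297 and 1492 in B.D(Chr5), against 2225, 1886 and 2174 in C57B/L6. Its log2 change was -0.26 (SE 0.16, limma adjusted p = 1.00). Tie1, the orphan receptor related to Tek, had a log2 change of -0.0016, and Myc, the relative of Mycn, had 0.05. Dbp and Tef, the other PAR bZIP factors, had -0.08 and -0.12. The bZIP repressor Nfil3, which competes for the same sites, had 0.32, with signals of 350.2, 275 and 366 in B.D(Chr5), against 245, 239.8 and 299 in C57B/L6.

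Thbd encodes thrombomodulin, which with Procr serves the activation of protein C. It had signals of 345, 321 and 442 in B.D(Chr5), against 238, 296 and 316 in C57B/L6, and the arrays of the strains did not overlap. Its log2 change of 0.36, with an SE of 0.17, was opposite in sign to that of Procr and was not called (limma adjusted p = 1.00). F2r, the thrombin receptor through which Procr-bound protein C can signal, had -0.20. Ly6e, a relative of Ly6a, had -0.03. Jam3, a junctional adhesion molecule related to Esam, was dim, with signals of 22.5, 35.4 and 59.3 in B.D(Chr5), against 52.0, 41.8 and 6.78 in C57B/L6.

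The list of other genes active in stem cells and multipotent progenitors was mostly on the lower side in B.D(Chr5). Of 39 tested, 31 had log2 changes below 0 and 8 above, with a median of -0.11. The 1 called gene was Slamf1, the gene of the stem cell marker CD150, and it was higher. Its signals were 650.2, 841 and 596 in B.D(Chr5), against 266, 364 and 282 in C57B/L6, with a log2 change of 1.15 (SE 0.17, limma adjusted p = 0.0361). When each array in turn was removed, the call was lost in 5 of 6 fits, with limma adjusted p up to 0.215. With all arrays it was lost without a filter (limma adjusted p = 0.0751), without the trend (0.168) and with the mean over all probe sets (0.282, log2 change 0.84). In the upper 25% Slamf1 was not tested. On the second tested probe set of Slamf1 the change was 0.93 in log2, without a call (limma adjusted p = 0.274). At an unadjusted threshold of 0.05, 6 genes were lower and 1 higher. Adgrg1, an adhesion receptor gene also known as Gpr56, had signals of 1741, 1806 and 1870.0 in B.D(Chr5), against 1999.7, 2387 and 2489.8 in C57B/L6, a log2 change of -0.34 (SE 0.10, limma adjusted p = 0.695). Meis1, a homeobox factor required by stem cells, had 840.5, 892 and 749 in B.D(Chr5), against 946, 1117 and 1264 in C57B/L6, a log2 change of -0.41 (SE 0.13, limma adjusted p = 0.746). In both genes the arrays of the strains did not overlap on this probe set. The mean over all probe sets of Meis1 was 0.03, including a probe set too dim to be tested, while both tested ones were below 0. Txnip, a regulator of redox state and glucose uptake, had -0.26. Kit, the stem cell factor receptor gene, had -0.12, with signals of 4064, 5552 and 4060.0 in B.D(Chr5), against 5338, 4184 and 5252 in C57B/L6.

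Among 12 genes of multipotent and lymphoid-primed progenitors, 8 had log2 changes below 0, with a median of -0.06 and 0 called by limma (2 lower at an unadjusted threshold of 0.05). The pair of smallest p were Ccr9, a homing receptor of early lymphoid cells, with -0.54, and the chromatin organiser Satb1, with -0.32.

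Because Procr, Tek, Esam and Cd34 are also expressed by endothelium, markers of that cell type and of others that the preparation could hold were read beside them. Of 18 endothelial genes, 9 were bright enough to be tested, 5 below 0 and 4 above, with a median of -0.01 and 0 called by limma (1 lower at an unadjusted threshold of 0.05). The summed signal of the 18 was 4438 to 4661 in B.D(Chr5) and 4452 to 4890.0 in C57B/L6. The largest parts of it were Eng, Egfl7 and Pecam1, with strain means of 1537, 990 and 798 in B.D(Chr5). In C57B/L6 these means were 1547, 1156 and 758, so the sum says little of the dimmer genes. The defining markers Cdh5, Kdr, Cldn5, Flt1 and Sox17 were too dim to be tested. None of the 18 lay below the bacterial controls on all 6 arrays. Cdh5, Cldn5 and Flt1 exceeded these controls on all 6 arrays, Kdr on 2 arrays of each strain and Sox17 on 1 of each. Stab2, a scavenger receptor of sinusoidal endothelium, had a log2 change of -0.46, and Esm1, a secreted endothelial proteoglycan, had 0.78, which was 0.37 without C57B/L6 replicate 2.

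Markers of several committed lineages had median log2 changes of larger size than the 9 genes. For granulocyte-monocyte progenitors, 9 of 9 tested genes were above 0, with a median of 0.68, and the summed signal was 59920 to 87042 in B.D(Chr5) and 48590 to 56971 in C57B/L6. The granule protease genes Ctsg and Prtn3 had log2 changes of 0.56 and 0.45. For maturing neutrophils, 8 of 9 were above 0, with a median of 0.42 and sums of 53254 to 74189 in B.D(Chr5) and 44459 to 49572 in C57B/L6. Camp and Ngp, which encode neutrophil granule proteins, had 0.65 and 0.45. For mast cells, basophils and eosinophils, 6 of 7 were above 0, with a median of 0.96 and sums of 6089 to 14464 in B.D(Chr5) and 5736 to 6570.4 in C57B/L6. The IgE receptor gene Fcer1a had 1.38 and the eosinophil granule gene Prg2 had 0.96. None of the genes of these lists was called by limma (0 in each). At an unadjusted threshold of 0.05, which 4.75% of all tested probe sets passed in either direction, 7, 5 and 5 were higher. Some were called under other settings, Fcer1a with median centring (limma adjusted p = 0.0380), and Ctsg (0.0113), Prg2 (0.0224) and Prtn3 (0.0308) without B.D(Chr5) replicate 2. Their part in the lower stem cell signals was not tested.

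B lineage genes were above 0 for 8 of 8, with a median of 0.55 and a range of 0.21 to 0.99. The pair of smallest p were Igll1 with 0.83 and Vpreb1 with 0.82, components of the pre-B cell receptor, and Vpreb1 was 0.46 without B.D(Chr5) replicate 3. Their sums were 3797 to 9321 in B.D(Chr5), the highest on replicate 3, and 3148 to 3965 in C57B/L6. T and NK lineage genes were below 0 for 6 of 7, with a median of -0.56. The pair of smallest p were Cd3d with -0.80 and Thy1 with -0.64. Their sums were 2946 to 4290.1 in B.D(Chr5) and 3400 to 4885 in C57B/L6. The largest part of each sum was Nkg7, the 1 gene above 0, with a log2 change of 0.14. Its signals were 1635 to 2647 in B.D(Chr5) and 1705 to 2379.5 in C57B/L6, so the overlap of the sums says little of the other genes. Stroma and bone genes were above 0 for 10 of 11, with a median of 0.94. Their sums were 3575 to 5894 in B.D(Chr5) and 1595 to 4069 in C57B/L6, where the highest array was replicate 1. Lpl, lipoprotein lipase, had 1.06 and was called without C57B/L6 replicate 1 (limma adjusted p = 0.0470). The niche chemokine gene Cxcl12 had 0.97, which was 0.55 without C57B/L6 replicate 2.

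The erythroid list had 8 of 10 genes below 0 and a median of -0.06, with Tfrc, the transferrin receptor gene, at 0.17 and Epor, the erythropoietin receptor gene, at -0.16. Megakaryocyte genes had 5 of 6 below 0 and a median of -0.12, with Gp9, a platelet adhesion receptor gene, at -0.39 and the platelet chemokine gene Pf4 at -0.14. Monocyte and dendritic cell genes had 8 of 10 above 0 and a median of 0.17, with Ly86, which encodes the toll-like receptor partner MD-1, at 0.20 and Cd74, the invariant chain gene, at 0.27. Of the B lineage, T and NK, stroma and bone, erythroid, megakaryocyte, monocyte and dendritic cell genes, 0 were called by limma. At an unadjusted threshold of 0.05, 3 B lineage, 7 stroma and bone, 1 erythroid and 1 monocyte or dendritic cell gene were higher. At the same threshold 4 T and NK lineage genes were lower. Of all tested probe sets, 4.75% passed it in either direction and 2.56% passed as lower.

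**Figure D5:**
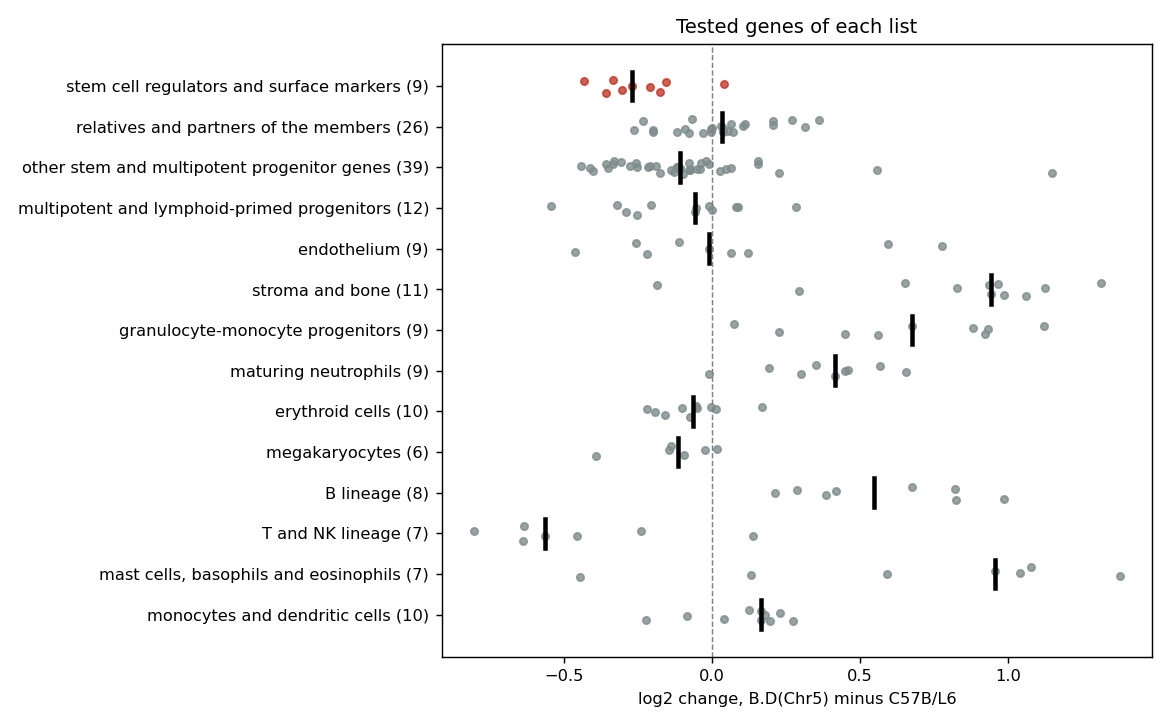
Log2 change (B.D(Chr5) minus C57B/L6) of the tested genes of each list, 1 point per gene on its brightest probe set, with the median as a black bar and the number of tested genes in brackets. The 9 stem cell regulators and surface markers (red) have a median of -0.27, the other stem and multipotent progenitor genes -0.11, endothelium -0.01 and granulocyte-monocyte progenitors 0.68.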

How the data were processed

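RNA of 6 samples was measured on 6 Affymetrix arrays, 1 sample each. The authors deposited 1 intensity per probe set and array, linear in scale and computed with MAS5 per the submitters' processing notes. Which version and settings were used is not given in the sources used here. Every array had a trimmed mean (2% off each end) of 500, and 0 pairs of arrays held identical values.

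Left out were 64 controls. The platform annotation gave 34945 probe sets 1 gene symbol, 932 several and 9160 none, and only the first kind was named. Entrez identifiers were used to bring symbols up to date with RefSeq on GRCm38.p6. The values carry no genome build, so only promoter windows have coordinates.

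Signals became log2(signal + 16). Tested were the brighter 50% of probe sets, ranked on their mean, by limma 3.58.1 under R 4.3.3 (lmFit, then eBayes with a trend), two-sided, with strain as the only term and Benjamini-Hochberg adjustment over all tested probe sets. The script was tested on simulated data. Each gene is read on its brightest probe set.

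The members and gene lists were chosen with earlier results of these data known. Named were all members, called genes of the other lists, the 4 (relatives, other stem cell genes) or 2 (other lists) genes of smallest p, and Kit, Slamf1, Angpt1, Tie1, Myc, Dbp, Tef, Ly6e and Jam3. Another gene of that rule is not reported here. The alternatives were pseudocounts of 1 and 64, no filter or the upper 25%, quantile normalization, median centring, no trend, the replicate number as a block, no _x_at or _s_at probe sets, averaging the probe sets of a gene, and leaving out each array. The number of arrays, 3 a strain, limits the precision.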

Additional observations from a re-analysis of the deposited data

How the results depend on the processing

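Of the 9 genes, 0 were called under any alternative listed above, and 6 to 9 of them were below 0. Their median change of -0.27 became -0.15 with the mean over all probe sets of a gene, untested dim ones included. It lay between -0.30 and -0.21 under the other settings that kept all arrays. With an array left out it ran from -0.43 (without C57B/L6 replicate 1) to -0.17 (without B.D(Chr5) replicate 1). In the upper 25%, 3 of the 9 genes were tested, Cd34, Hlf and Mycn. With the mean over all probe sets 6 were tested, and Mecom, Prdm16 and Ndn could not be called. Without _x_at and _s_at probe sets 8 genes were measured and Procr dropped out, so the median of -0.30 there is over 8 genes. Deviations of arrays of the same replicate number had r of -0.11, -0.20 and 0.20 over the tested probe sets, so the numbers are not taken to pair the samples. With 3 arrays a strain, such values cannot exclude that these arrays were handled together. Over all probe sets the count of calls was 41 in the analysis as reported and 27 with the replicate block. It was 21 in the upper 25%, 67 with median centring, 25 without trend, 23 without _x_at and _s_at probe sets and 15 genes with the mean over all probe sets. With an array left out it was 21 (without B.D(Chr5) replicate 1) to 73 (without B.D(Chr5) replicate 2), with 24 without C57B/L6 replicate 2 and 23 without C57B/L6 replicate 3. The upper 25% and the mean over all probe sets test fewer features. For the other settings the cause was not tested.

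Several changes turned sign. With the mean over all probe sets, Mycn (-0.43 on its brightest probe set) was 0.0574, Meis1 (-0.41) 0.0346, Dbp 0.0514 and Ly6e 0.0530. Prdm16 (-0.36), not tested in that setting, was 0.0208. The means of Mycn, Prdm16 and Meis1 include probe sets too dim to be tested, at the same weight. Of the 4 probe sets of Prdm16, 2 were tested, both below 0. Of the 3 probe sets of Mycn, 2 were tested, 1 of them below 0. Of the 3 of Meis1, 2 were tested, both below 0. Without _x_at and _s_at probe sets, Dbp was 0.179 and Ly6e 0.135, and with a pseudocount of 1 Tie1 was 0.00228. With each array left out in turn, the change ran from -0.0929 to 0.166 for Esam, -0.184 to 0.156 for Tie1, -0.133 to 0.0320 for Dbp, -0.0707 to 0.0238 for Ly6e, -0.00159 to 0.129 for Myc, -0.000682 to 0.501 for Cd74 and -0.288 to 0.0166 for Pf4. Of the 36 other tested genes named, 20 moved by over 1.5 times with an array left out, and 6 of them turned sign. Calls gained were Fcer1a with median centring, Lpl without C57B/L6 replicate 1, and Ctsg, Prg2 and Prtn3 without B.D(Chr5) replicate 2.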
